A study of Rattus norvegicus with 18 samples.

Results

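The renin-angiotensin system genes described here are 7 genes of a rat kidney RNA-seq series: angiotensinogen (Agt), angiotensin-converting enzyme (Ace), the type 1a angiotensin II receptor (Agtr1a), the Mas receptor (Mas1), aminopeptidase A (Enpep), neprilysin (Mme) and the (pro)renin receptor (Atp6ap2). They were taken from the deposited gene table by name, 7 of 32116 genes. The name column held 6 of them, and Atp6ap2 was found through the symbol in its description field. Of the 7, 6 passed the filter on low values (at least 6 of 18 libraries with an FPKM of 1 or more), which 13851 genes passed in all, and Mas1 did not. FPKM is a fragment count divided by gene length and library size, so levels of different genes are given per length. All 7 are annotated as protein coding in the deposited table, whose coordinates are on mRatBN7.2: Agt at chr19:52529185-52540977 (minus strand), Ace at chr10:90910316-90931131 (plus), Agtr1a at chr17:34174429-34226946 (minus), Mas1 at chr1:47880309-47911709 (plus), Enpep at chr2:217782005-217851947 (minus), Mme at chr2:147722086-147803792 (plus) and Atp6ap2 at chrX:10183068-10210918 (minus).

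The system is a peptide cascade. Angiotensinogen is cut to angiotensin I, angiotensin-converting enzyme trims that to angiotensin II, and angiotensin II acts on the type 1 receptor to constrict vessels and retain sodium. The kidney holds a local copy of the cascade: proximal tubule cells make angiotensinogen, their brush border carries aminopeptidase A, which turns angiotensin II into angiotensin III, and neprilysin, which makes from angiotensin I the heptapeptide ligand of the Mas receptor. Atp6ap2, beside its receptor role, is also an accessory subunit of the vacuolar proton pump (V-ATPase).

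The series compared 3 groups of 6 kidney libraries. SZ rats received daily adenine (100 mg per kg) and SZ-A (300 mg per kg), CKD rats received the same daily adenine alone, and NC rats were untreated. Adenine feeding is a common way to injure tubules in rodents, and the labels do not say what SZ-A is or give the strain, sex or age of the rats. CKD against NC shows the difference that goes with adenine, and SZ against CKD the difference that goes with SZ-A under adenine. The labels do not tie each library to its own animal, and the p-values then cover only how these libraries vary, a variation that may be technical.

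Depth was even, at 15354358 to 18532375 reads recovered per library. Across all tested genes, limma called 6973 of 13851 in CKD against NC, 1521 in SZ against CKD and 2919 in SZ against NC, at a Benjamini-Hochberg adjusted p under 0.05. Of the calls in CKD against NC, 48.4% were higher in CKD, and this share was 83.7% under TPM scaling, 77.6% with plain read totals and 62.3% with scaling without the 20 most abundant genes. These scalings moved the median of all genes in CKD against NC to 0.37, 0.25 and 0.07 on the log2 scale, against -0.04 as deposited. The share of calls higher in SZ was 37.9% against CKD, with 15.02% under TPM and 17.9% with totals. It was 59.1% against NC, with 93.3%, 88.3% and 80.7% under the same 3 scalings. Levels sloped with gene length most in CKD 5 (-0.31 log2 units per doubling of length), SZ 3 (-0.25) and CKD 2 (-0.21), and results that rest on these libraries are also given without them. The libraries carried kidney markers, and of 5 adrenal genes Cyp11b1 and Cyp11b2 stayed under 0.5 FPKM in all 18, while Star reached 0.65, Mc2r 0.60 and Cyp21a1 1.30 FPKM, and none of the 5 passed the filter.

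Levels of the 7 genes spanned a wide range within the kidney. In the NC group Enpep was the most abundant, at a median of 173 FPKM, and its range did not overlap that of Atp6ap2 (median 118 FPKM). Mme followed at 114 FPKM, Agt at 23.2, Agtr1a at 17.9, Ace at 4.65 and Mas1 at 0.12. The range of Atp6ap2 overlapped with that of Mme, Mme with Agt and Agt with Agtr1a, while Agtr1a lay above Ace and Ace above Mas1 in every NC library. In the CKD group Atp6ap2 stood first (median 83.0 FPKM) and Enpep second (77.2 FPKM), with overlapping ranges. In the SZ group Enpep stood first again (116 FPKM) ahead of Atp6ap2 (90.0 FPKM), also with overlap.

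**Figure D1:**
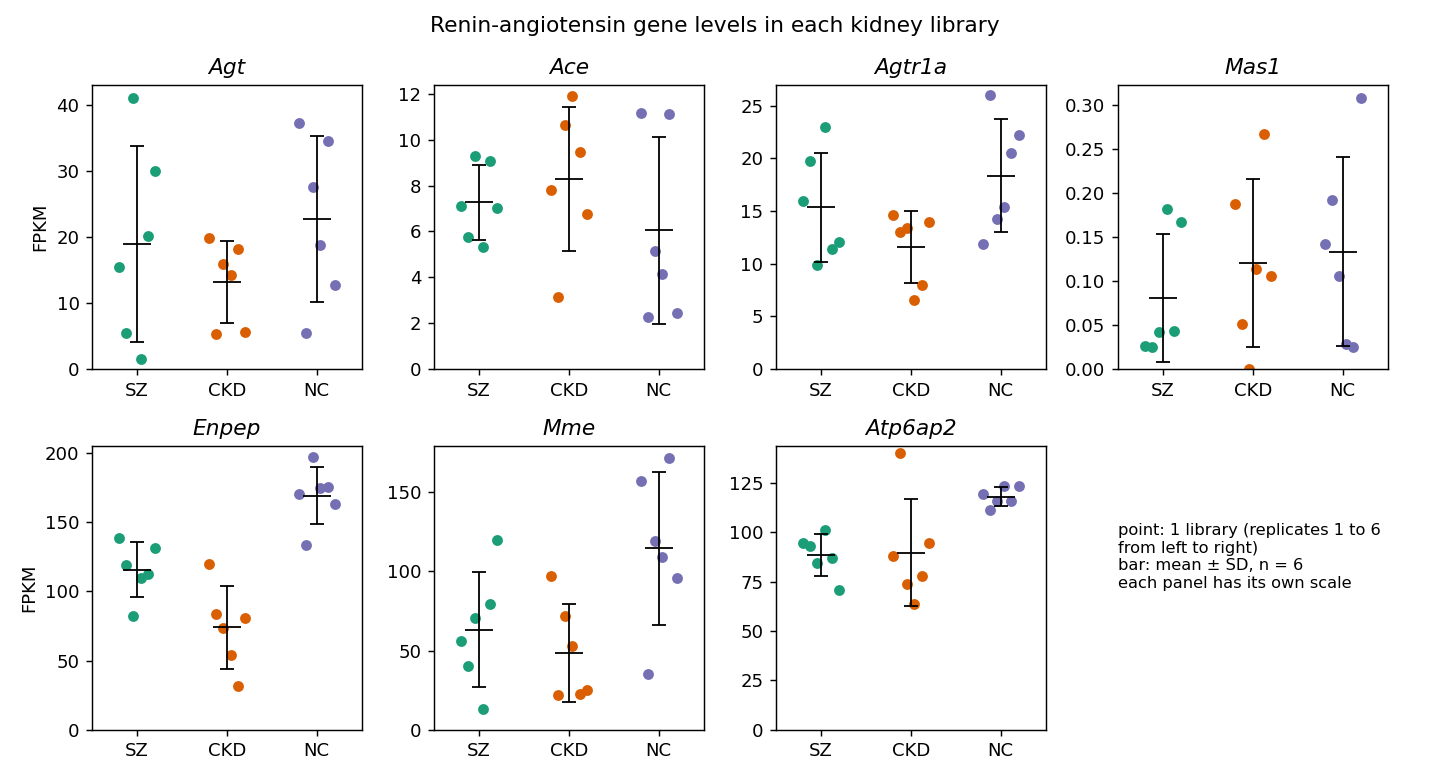
FPKM of each renin-angiotensin gene in every library, with 1 point per library, the groups SZ, CKD and NC from left to right and the mean ± SD (n = 6) as bars. Every panel starts at 0 and has its own scale. The 6 CKD points of Enpep lie below the 6 NC points, and Mas1 stays at or below 0.308 FPKM throughout.

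The 250 bases before the start sites of 4 members are printed because these genes moved differently: Enpep and Mme, both membrane peptidases of the brush border, were lower in CKD, Agtr1a was lower by less, and Ace had a positive difference that was not called. The sequences are from RefSeq on the build GRCr8, 5′ to 3′ on the strand of the gene, and 6 of the 7 members had an entry. Capitals mark TATAAA (the TATA box letters) and GGGCGG (the GC box letters, bound by Sp1) on either strand, and GGGCGG matches may overlap.
Enpep (chr2:220526219-220526468, minus strand): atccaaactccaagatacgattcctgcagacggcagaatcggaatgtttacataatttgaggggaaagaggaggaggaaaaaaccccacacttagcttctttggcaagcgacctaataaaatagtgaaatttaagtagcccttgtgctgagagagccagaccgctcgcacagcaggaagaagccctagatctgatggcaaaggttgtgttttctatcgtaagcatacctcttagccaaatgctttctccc
Mme (chr2:149872247-149872496, plus strand): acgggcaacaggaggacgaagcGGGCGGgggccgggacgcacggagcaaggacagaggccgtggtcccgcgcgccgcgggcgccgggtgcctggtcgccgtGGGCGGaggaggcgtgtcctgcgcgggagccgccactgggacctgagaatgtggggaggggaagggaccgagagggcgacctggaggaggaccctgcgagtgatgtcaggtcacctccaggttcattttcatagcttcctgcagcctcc
Ace (chr10:91409879-91410128, plus strand): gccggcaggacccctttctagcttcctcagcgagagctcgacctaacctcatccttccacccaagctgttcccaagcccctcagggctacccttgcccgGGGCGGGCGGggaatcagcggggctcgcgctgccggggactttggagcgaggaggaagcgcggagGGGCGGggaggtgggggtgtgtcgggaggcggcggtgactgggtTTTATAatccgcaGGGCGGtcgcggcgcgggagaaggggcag
Agtr1a (chr17:34435433-34435682, minus strand): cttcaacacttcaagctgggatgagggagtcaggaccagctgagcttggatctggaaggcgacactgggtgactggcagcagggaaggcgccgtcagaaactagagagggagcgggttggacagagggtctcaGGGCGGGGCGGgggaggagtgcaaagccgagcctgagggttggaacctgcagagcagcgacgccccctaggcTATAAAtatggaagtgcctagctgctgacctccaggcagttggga
TATAAA stood at position -42 in Ace, on the opposite strand, and at position -45 in Agtr1a, counted from the start site to the leftmost base of the match, and 12.9% of 33469 promoters of the same length held it. GGGCGG was found 4 times in Ace, at -151, -147, -86 and -29, and at -228 and -149 in Mme and -117 and -112 in Agtr1a, against 30.5% of all promoters with a match. Neither string was in the Enpep window. GC content was 45.2% for Enpep, 70.4% for Mme, 69.2% for Ace and 60.8% for Agtr1a, with a median of 51.2% over all promoters. The Enpep and Mme windows lay on opposite sides of that median. A match is a description of these letters and not a site of binding.

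Adenine was accompanied by lower levels of 4 of the 6 tested genes and higher levels of none. Under TPM scaling and with plain totals 1 was lower (Enpep) and 1 higher (Ace), and without NC 5 or CKD 5 there were 2 lower and none higher. Enpep and Mme fell by the most, Agtr1a and Atp6ap2 by less, and Agt and Ace were not called. Over all tested genes 50.3% were called in CKD against NC, 24.4% higher and 26% lower. The median log2 fold change of the 6 genes was -0.64, beside -0.04 for all tested genes. In bulk tissue, fewer cells of a type and less RNA per cell cannot be told apart.

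Agt is the precursor of every angiotensin peptide. It ranged from 5.33 to 19.9 FPKM in the CKD group (median 15.03) and from 5.39 to 37.3 FPKM in the NC group (median 23.2). The CKD range lay almost wholly within the NC range. The log2 fold change was -0.66 (SE 0.59, limma adjusted p = 0.36). The level lay in the SZ group between 1.56 and 41.0 FPKM (median 17.8), so the group held both the lowest and the highest of the 18 libraries. The difference was 0.13 against CKD (SE 0.59, adjusted p = 0.90) and -0.53 against NC (adjusted p = 0.57), both on the log2 scale by limma. The positive sign against CKD turned to -0.03 under TPM scaling and to -0.29 without CKD 2, CKD 5 and SZ 3. Agt is also a liver gene, and of the 4 liver markers in the table Alb and Serpina1 were under 0.5 FPKM in all 18 libraries, while Apoa1 reached 0.78 FPKM and Apoh passed the filter. The 4 summed to 0.29 to 4.74 FPKM in SZ, 0.44 to 4.97 FPKM in CKD and 1.65 to 8.92 FPKM in NC, and their part in the Agt values was not tested.

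Ace removes the last pair of residues from angiotensin I and also inactivates bradykinin. Its level ran from 3.16 to 11.9 FPKM in the CKD group (median 8.65) and from 2.26 to 11.2 FPKM in the NC group (median 4.65). The NC group was split, with NC 1 and NC 5 at 11.2 and 11.1 FPKM and the other NC libraries at or below 5.16 FPKM. Its log2 fold change was 0.52 (SE 0.32, limma adjusted p = 0.19). Ace was called higher in CKD under TPM scaling (0.99, adjusted p = 0.034) and with plain totals (0.81, adjusted p = 0.048). Measured against the median gene of the same scaling, however, the difference was 0.56 as deposited, 0.62 under TPM and 0.57 with totals. SZ libraries ran from 5.33 to 9.31 FPKM (median 7.07). The log2 difference was -0.10 against CKD (SE 0.32, adjusted p = 0.86) and 0.41 against NC (adjusted p = 0.39). Endothelial cells also carry Ace. Of all tested genes 50.3% were called in CKD against NC and 26% were lower. Of the 9 tested endothelial markers 4 were lower in CKD and none higher. Their summed level ran from 145 to 188 FPKM in CKD and from 168 to 222 FPKM in NC, and its part in the Ace values was not tested.

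Agtr1a codes for the main vascular and tubular angiotensin II receptor of the rat. It ranged from 6.56 to 14.6 FPKM in the CKD group (median 13.2) and from 11.9 to 26.01 FPKM in the NC group (median 17.9). The 2 lowest CKD libraries, CKD 4 and CKD 5, lay at 6.56 and 7.95 FPKM, and the other CKD libraries overlapped with the lower end of NC. The log2 fold change was -0.63 (SE 0.23, limma adjusted p = 0.031). It was no longer called without CKD 2, CKD 5 and SZ 3 (-0.57, adjusted p = 0.072), nor under TPM (-0.21) or plain totals (-0.31). Leaving out NC 2, NC 5, NC 6, CKD 4 or CKD 5 alone also ended the call, with values of -0.59 to -0.49. Agtr1a lay at 9.83 to 22.9 FPKM in SZ libraries (median 14.0). Against CKD the log2 difference was 0.37 (SE 0.23, adjusted p = 0.30), and against NC it was -0.26 (adjusted p = 0.47), which TPM scaling turned to 0.03.

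Mas1, the receptor of the heptapeptide that neprilysin makes, was at the floor of detection. The 6 libraries of a group held 22 reads in all for SZ, 35 for CKD and 30 for NC, and no library held over 13. The highest level was 0.18 FPKM in SZ, 0.27 in CKD and 0.31 in NC, where 3 reads correspond to 0.06 to 0.09 FPKM. CKD 3 had 0 reads. Differences between groups were not detectable at this depth.

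Enpep, the aminopeptidase that trims angiotensin II, gave the clearest change. It lay at 31.7 to 120 FPKM in the CKD group (median 77.2) and at 134 to 197 FPKM in the NC group (median 173). Every CKD library was below every NC library, as was the case or the reverse for 26.5% of all tested genes. The mean was 73.9 ± 29.8 FPKM in CKD and 169 ± 20.7 FPKM in NC (SD, n = 6 each). The log2 fold change was -1.28 (SE 0.22, limma adjusted p = 0.00013). CKD 5 was the lowest library, and without CKD 2, CKD 5 and SZ 3 the fold change was -1.08 (adjusted p = 9.8e-05).

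Mme, which cuts angiotensin I and many other small peptides, fell in mean by as much but with a far wider spread. It ranged from 21.8 to 97.2 FPKM in the CKD group (median 39.1) and from 35.4 to 172 FPKM in the NC group (median 114). CKD 2, CKD 5 and CKD 6 were at or below 25.3 FPKM, while CKD 1, at 97.2 FPKM, lay above NC 2 and NC 6, and NC 2 lay below CKD 1, CKD 3 and CKD 4. Its log2 fold change in CKD against NC was -1.31 (SE 0.49, limma adjusted p = 0.032). Without CKD 2, CKD 5 and SZ 3 it was -0.88 (adjusted p = 0.19), and under TPM -0.87 (adjusted p = 0.16). The call also ended without NC 1, NC 3, NC 4, NC 5, CKD 2, CKD 5 or CKD 6 alone, at -1.29 to -1.13 and an adjusted p up to 0.075.

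Atp6ap2 was tight in untreated kidneys and less so under adenine. It ranged from 63.5 to 140 FPKM in the CKD group (median 83.0) and from 111 to 123 FPKM in the NC group (median 118). The highest library was CKD 2, which lay above all NC libraries, and the other 5 lay below them. The log2 difference from NC was -0.44 (SE 0.14, limma adjusted p = 0.017), and without CKD 2, CKD 5 and SZ 3 it was -0.57 (adjusted p = 0.00081). Under TPM scaling it was 0.01 and with plain totals -0.09, neither called, while against the median gene of the same scaling it was -0.40 as deposited, -0.36 under TPM and -0.34 with totals.

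**Figure D2:**
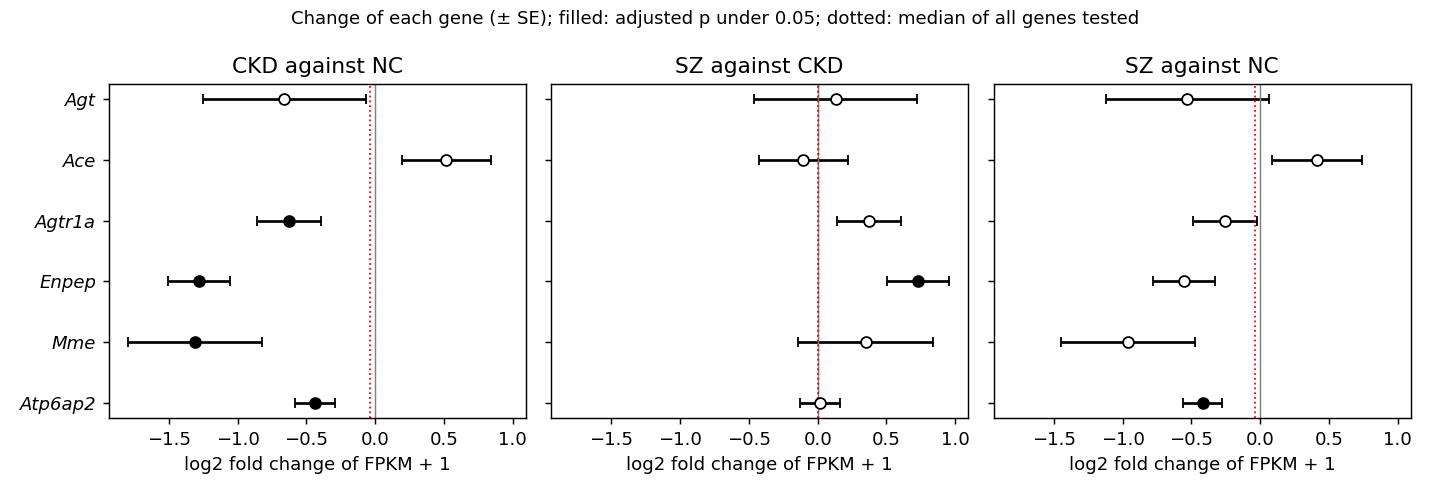
Log2 fold change of FPKM + 1 (± SE) of the 6 tested genes in CKD against NC, SZ against CKD and SZ against NC. Filled points passed limma's adjusted p under 0.05, and the dotted line is the median of all tested genes, at -0.04, 0.0055 and -0.04 in the 3 panels. The filled points are Agtr1a, Enpep, Mme and Atp6ap2 on the left, Enpep in the middle and Atp6ap2 on the right.

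Under SZ-A, Enpep was the only called member, and it was higher. The other 5 tested genes had log2 differences between -0.10 and 0.37 against CKD, none called. Of all tested genes, 11% were called in SZ against CKD, 4.16% higher and 6.82% lower. The median of the 6 members was 0.24, beside 0.0055 for all genes.

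Enpep reached 82.2 to 138 FPKM in SZ libraries (median 116), against 31.7 to 120 FPKM in CKD libraries (median 77.2). SZ 3 was the lowest SZ library and CKD 1 the highest CKD library, and these overlapped with the other group. The log2 difference was 0.73 (SE 0.22, limma adjusted p = 0.044), a mean 1.57 times that of CKD. It was still called without CKD 2, CKD 5 and SZ 3 (0.62, adjusted p = 0.035), and not under TPM scaling (0.59, adjusted p = 0.074), with plain totals (adjusted p = 0.052), with only the SZ and CKD libraries in the fit (adjusted p = 0.11) or in 8 of 12 fits that left out a library (CKD 3, CKD 4, CKD 5, SZ 1, SZ 2, SZ 4, SZ 5 or SZ 6, at 0.51 to 0.75 with an adjusted p up to 0.093). Against NC the log2 difference was -0.55 (adjusted p = 0.088), not called, and -0.46 without CKD 2, CKD 5 and SZ 3, which was called (adjusted p = 0.040).

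Mme ranged from 13.1 to 120 FPKM in SZ libraries (median 63.2), which covered the whole CKD range. Its log2 difference was 0.35 against CKD (SE 0.49, limma adjusted p = 0.66) and turned to -0.16 without CKD 2, CKD 5 and SZ 3. Against NC the difference was -0.96 (adjusted p = 0.17).

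Atp6ap2 was not called in SZ against CKD. It lay at 70.9 to 101 FPKM in SZ libraries (median 90.0), and the log2 difference was 0.02 against CKD (SE 0.14, limma adjusted p = 0.95). Every SZ library was below every NC library, a separation that 14.6% of all tested genes showed. Against NC the log2 difference was -0.42 (SE 0.14, adjusted p = 0.045), the only call among the 6 members, where 21.1% of all genes were called, 12.5% higher and 8.61% lower. It was lost when any of 11 of the 12 libraries was left out, all but SZ 4, with adjusted p up to 0.11, and under TPM (-0.11, adjusted p = 0.44). Of 15 alternative settings 5 lost the call, TPM among them. It was kept without CKD 2, CKD 5 and SZ 3 (-0.41, adjusted p = 0.012). CKD and SZ share no library, but both are set against the same NC libraries.

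Ratios between members within a library do not depend on how libraries are scaled to each other, and 15 pairs of the 6 genes were compared by exact 2-sided permutation tests adjusted over the pairs. In CKD against NC, 4 ratios differed. Ace to Mme ran from -3.64 to -1.26 on the log2 scale in CKD and from -5.30 to -3.81 in NC. All 6 CKD libraries lay above all 6 NC libraries, a difference of 1.97 (3.91-fold, exact p = 0.0022, the smallest possible, adjusted p = 0.032). Ace to Enpep was higher by 1.93 (exact p = 0.013, adjusted p = 0.049), with ranges that overlapped. Mme acts on the substrate of Ace and Enpep on its product. The Agt to Ace ratio fell by 1.34 (exact p = 0.0043, adjusted p = 0.032), with mean log2 ratios of 0.60 in CKD and 1.94 in NC. Atp6ap2 to Enpep was higher by 0.86 (exact p = 0.0065, adjusted p = 0.032). Without CKD 2, CKD 5 and SZ 3 none of the 4 passed (adjusted p = 0.054 each), with differences of 1.77, 1.97, -1.46 and 0.52. Ace to Enpep and Agt to Ace thus differed by slightly more than with all libraries, and Ace to Mme and Atp6ap2 to Enpep by less. Fewer libraries allow fewer splits and a larger smallest p, so these lost calls cannot be told apart from a coarser test. The Ace to Enpep call ended without any 1 of NC 2, NC 3, NC 4, NC 6, CKD 1, CKD 3, CKD 4, CKD 5 or CKD 6 (1.65 to 2.09, adjusted p up to 0.097), and that of Atp6ap2 to Enpep without NC 3 (0.80) or NC 4 (0.86).

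None of these ratios was called in the SZ comparisons. In SZ against CKD 0 of 15 passed after adjustment and 1 had an unadjusted exact p under 0.05. The smallest exact p was 0.024, for Atp6ap2 to Enpep (-0.72, adjusted p = 0.36). In SZ against NC 0 of 15 passed and 2 had an unadjusted exact p under 0.05, with Ace to Mme higher by 1.51 (exact p = 0.0087, adjusted p = 0.13). Without SZ 6 that ratio was called (1.76, adjusted p = 0.032).

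**Figure D3:**
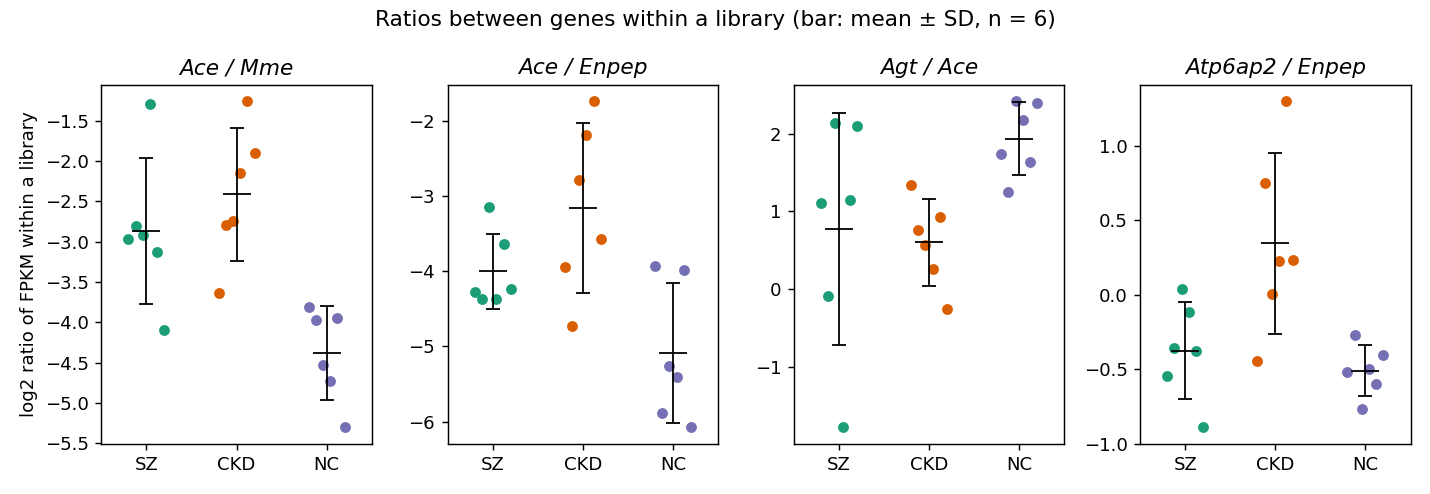
Log2 ratio of FPKM within each library for the 4 pairs called in CKD against NC, with 1 point per library, the groups SZ, CKD and NC from left to right and bars for the mean ± SD (n = 6). In the panel of Ace to Mme the CKD points start at -3.64, above the highest NC point at -3.81.

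Part of the spread within groups was shared between genes. Agt varied 26.4-fold between the lowest and highest SZ library, 3.73-fold in CKD and 6.92-fold in NC. Atp6ap2 varied 1.43-fold in SZ, 2.20-fold in CKD and 1.11-fold in NC. Within groups, 81 relations were computed among the 6 genes and with Slc7a13, a carrier of the straight (S3) segment of the proximal tubule, and Slc5a2, the glucose carrier of its first segment. These 2 markers were chosen after values had been seen. Points share a library and its depth, and p-values are exact over 6 libraries with adjustment over the 81. The relations were computed on the deposited values, and their dependence on library scaling was not tested. By Spearman rho none of the 81 passed adjustment (lowest adjusted p = 0.075, exact test).

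In NC libraries Agt went with Mme (Pearson r = 0.96, exact p = 0.0028, adjusted p = 0.038; Spearman rho = 0.94, exact p = 0.017, adjusted p = 0.14). Without the 2 libraries farthest from the median of Agt r was 0.90. The same pair had r = 0.92 in SZ (rho = 0.83, exact p = 0.011 for r, adjusted p = 0.069, r without 2 libraries 0.44) and r = 0.66 in CKD (rho = 0.66, exact p = 0.196 for r, adjusted p = 0.35, r without 2 libraries 0.08). Mme went with Slc7a13 in the same libraries (r = 0.99, exact p = 0.0028, adjusted p = 0.038; rho = 0.94, exact p = 0.017, adjusted p = 0.14; r without 2 libraries 0.94). NC 2 was the lowest of its group for Agt, Mme, Ace and Slc7a13 and the highest for Agtr1a.

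In SZ libraries Agt went with Slc7a13 (r = 0.99, exact p = 0.0014, adjusted p = 0.038; rho = 1, exact p = 0.0028, adjusted p = 0.075; r without 2 libraries 0.97) and against Agtr1a (r = -0.96, exact p = 0.0028, adjusted p = 0.038; rho = -0.94, exact p = 0.017, adjusted p = 0.14; r without 2 libraries -0.85). Agt with Slc7a13 had r = 0.45 in CKD (rho = 0.37, exact p = 0.37 for r, adjusted p = 0.52) and 0.95 in NC (rho = 0.89, exact p = 0.0056 for r, adjusted p = 0.05). Agt with Agtr1a had r = -0.32 in CKD (adjusted p = 0.68) and -0.76 in NC (adjusted p = 0.2), both by exact permutation. Mme with Slc7a13 had r = 0.94 in SZ (exact p = 0.013, adjusted p = 0.072) and 0.94 in CKD (exact p = 0.0056, adjusted p = 0.05). Atp6ap2 went with Slc5a2 in SZ (r = 0.94, exact p = 0.0028, adjusted p = 0.038, rho = 0.94, r without 2 libraries 0.96). That pair had r = 0.64 in CKD (adjusted p = 0.32) and -0.37 in NC (adjusted p = 0.56). Agtr1a ran against Slc7a13 in SZ (r = -0.91, exact p = 0.0042, adjusted p = 0.048, rho = -0.94, r without 2 libraries -0.70). Its r was 0.41 in CKD (adjusted p = 0.52) and -0.60 in NC (adjusted p = 0.33). SZ 4 was the lowest SZ library for Agt, Mme and Ace and the highest for Agtr1a and Atp6ap2. In CKD libraries Ace ran opposite to Atp6ap2 (r = -0.99, exact p = 0.0014, adjusted p = 0.038; rho = -1, exact p = 0.0028, adjusted p = 0.075; r without 2 libraries -0.998), while the pair had r = -0.45 in SZ (adjusted p = 0.52) and -0.01 in NC (adjusted p = 0.97). Slc7a13 itself ranged from 18.4 to 553 FPKM in SZ, from 26.2 to 286 FPKM in CKD and from 131 to 2032 FPKM in NC. It was lower in CKD than in NC (log2 fold change -3.43, limma adjusted p = 0.0013), and its part in the Agt and Mme values was not tested.

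**Figure D4:**
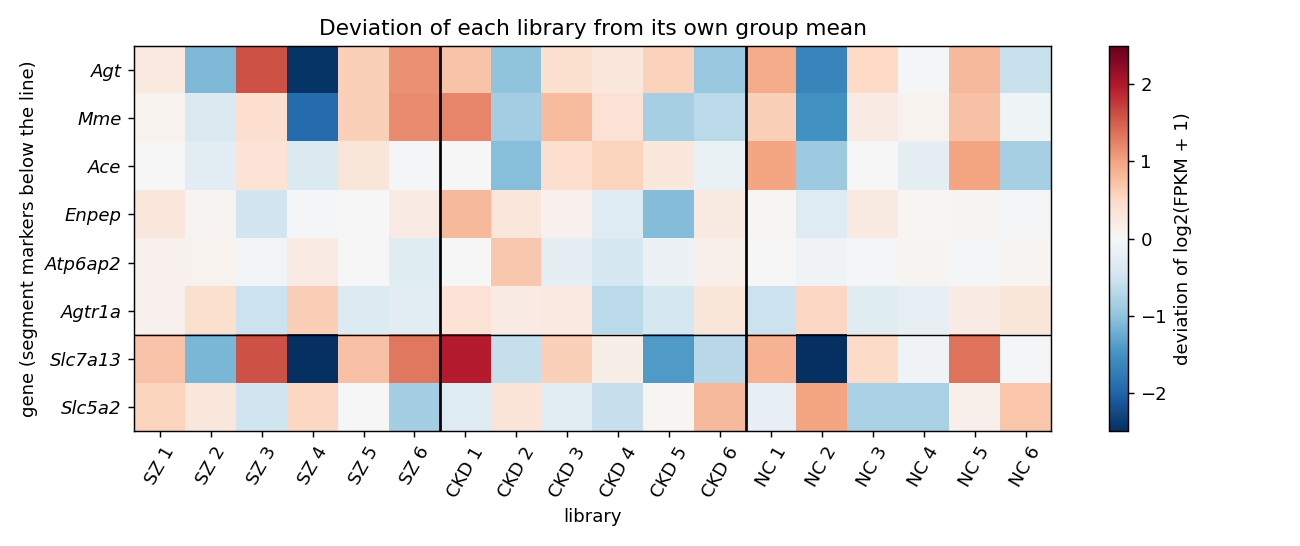
Deviation of each library from the mean of its own group in log2(FPKM + 1), for 6 renin-angiotensin genes and, below the line, the segment markers Slc7a13 and Slc5a2. Red is above and blue below the group mean, and the colour scale ends at 2.5 in either direction. SZ 4 and NC 2 are blue for Agt, Mme, Ace and Slc7a13 and red for Agtr1a.

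The genes whose pattern over the 18 libraries lay closest to a member were found by the mean absolute difference of centred log2(FPKM + 1). For Enpep they were Pcca (0.12), Pank1 (0.14) and Xpot (0.14), beside a mean absolute deviation of 0.51 of Enpep itself. For Mme they were Cndp1 (0.20), Gclm (0.23) and Ttc21b (0.26), beside 0.87. For Agt they were Aspg (0.20), Slc22a7 (0.31) and Slc23a3 (0.32), beside 0.86. Ace was nearest to Bicdl1 (0.21), Slc41a2 (0.27) and Orai2 (0.27), beside 0.50. Agtr1a was nearest to Dram2, Lrrc27 and Npl (0.18 each), beside 0.37, and Atp6ap2 to Dera (0.09), Ppp1cc (0.10) and Slc30a9 (0.10), beside 0.26.

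Of 16 further genes of the angiotensin pathway, 15 were in the table and 11 were tested. In CKD against NC 3 were lower and 3 higher, 6 of 11 where 50.3% of all tested genes were called, so the share was near that of all genes. Under TPM 2 were lower and 5 higher, with Dpp3 and Rnpep added and Prep lost (-0.82, adjusted p = 0.064), and with plain totals 3 were lower and 5 higher. The genes lower in CKD were the peptidases Anpep and Prep and the receptor Agtr1b. Anpep (aminopeptidase N), which follows Enpep in the cascade by cutting angiotensin III, averaged 125 ± 37.1 FPKM in CKD and 336 ± 82.4 FPKM in NC (SD, n = 6 each), with no overlap. Its log2 fold change was -1.44 (limma adjusted p = 3.6e-05). Prep, a prolyl peptidase that can also make the heptapeptide ligand of Mas1, had -1.24 (adjusted p = 0.0058). Agtr1b, the second rat type 1 receptor, averaged 0.74 ± 0.53 FPKM in CKD and 2.10 ± 0.68 FPKM in NC, with a log2 fold change of -0.85 (adjusted p = 0.0029).

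The 3 genes higher in CKD were soluble or lysosomal peptidases that cut angiotensins. Prcp, the lysosomal prolyl carboxypeptidase, which takes the last residue from angiotensin II, had a log2 fold change of 0.72 (limma adjusted p = 0.00022). Thop1 (thimet oligopeptidase) had 0.64 (adjusted p = 0.0068) and Nln (neurolysin) 0.37 (adjusted p = 0.00062), both with no overlap between CKD and NC. Limma called 0 of the 11 in SZ against CKD, and 1 had an unadjusted p under 0.05. That gene was Prcp, at -0.41 (adjusted p = 0.055). It was called by voom on the recovered reads, at a mean FPKM of at least 5, under TPM, with plain totals, with the length correction, with array weights and without CKD 1 or CKD 2. Without SZ 3, Thop1 was the 1 gene called. In SZ against NC 2 were called, where 21.1% of all tested genes were, with Anpep (-0.99, adjusted p = 0.0037) lower and Nln (0.33, adjusted p = 0.0047) higher. That count was 3 with the replicate block and 5 under TPM, and leaving out 1 library gave up to 3, with Prep added without NC 2 or SZ 6 and Prcp without NC 6.

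**Figure D5:**
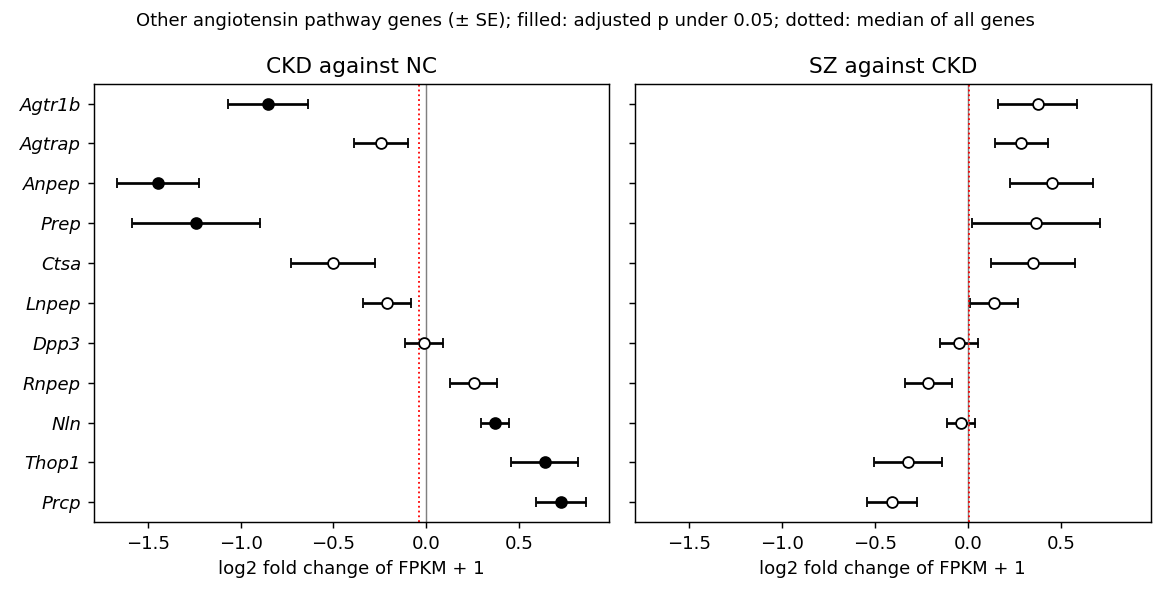
Log2 fold change of FPKM + 1 (± SE) of the 11 tested pathway genes outside the 7 members, in CKD against NC and SZ against CKD. Filled points passed limma's adjusted p under 0.05, and the dotted line is the median of all tested genes. Of the filled points on the left, Anpep, Prep and Agtr1b lie below 0 and Prcp, Thop1 and Nln above it. On the right no point is filled.

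Among the listed genes under the filter, the mast cell enzymes Cma1 and Cpa3 appeared with adenine, while Ctsg had no reads in any library. Chymase (Cma1), whose human counterpart forms angiotensin II without Ace, had 14 reads in all 6 SZ libraries together, 82 in CKD and 2 in NC. Its level ran from 0 to 0.31 FPKM in SZ, from 0.28 to 1.66 in CKD and from 0 to 0.07 in NC, with no overlap between CKD and NC. Cpa3, the carboxypeptidase that is stored with chymase, had 27 reads in SZ, 73 in CKD and 0 in NC. With no filter, limma called Cma1 higher in CKD than in NC (log2 fold change 0.73, adjusted p = 0.00058) and lower in SZ than in CKD (-0.59, adjusted p = 0.026). It called Cpa3 higher in CKD (0.51, adjusted p = 0.0077) and not in SZ against CKD (-0.29, adjusted p = 0.24). The remaining 2 genes, Mrgprd and Ctsg, had 0 reads in every library.

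The proton pump list, to which Atp6ap2 belongs by function, held 11 tested genes. In CKD against NC 6 were lower and none higher, with a median of -0.32. Of all tested genes 50.3% were called and 26% were lower, so the share called was near that of all genes. TPM scaling gave 1 lower and 3 higher of the 11 and plain totals likewise. Called genes numbered 3 without the 20 most abundant genes, with only the groups compared, with the replicate block and without NC 4 or CKD 4. They numbered 8 with the length correction, with array weights and without CKD 2, CKD 5 and SZ 3. Among the 11, the largest differences were those of Atp6v1a (-0.99, limma adjusted p = 0.00038), Atp6v0d1 (-0.56), Atp6v1h (-0.47) and Atp6v0c (-0.39, adjusted p = 0.048). The Atp6v0c call ended in 9 of 12 fits that left out a library, all but NC 6, CKD 2 and CKD 5 (-0.40 to -0.30, adjusted p up to 0.11), and with the replicate block (adjusted p = 0.074). Atp6v1a is the catalytic subunit. A further pump subunit, Atp6v1b1, was counted with the collecting duct markers and is not among the 11. It averaged 20.1 FPKM in CKD, 81.0 FPKM in NC and 35.4 FPKM in SZ. Its range was 11.3 to 34.8 FPKM in CKD and 48.9 to 113 FPKM in NC, with no overlap. In SZ against CKD limma and voom called 0 of the 11, and 0 had an unadjusted p under 0.05, while TPM scaling called Atp6v1g1 and the fit without SZ 3 called Atp6v1a. In SZ against NC 2 of the 11 were lower, Atp6v1a and Atp6v1h, where 21.1% of all tested genes were called and 8.61% were lower. That count was 0 under TPM, with plain totals, without the 20 most abundant genes and without NC 4, NC 6 or SZ 6. It was 1 with the replicate block and without NC 3, NC 5, SZ 1, SZ 2 or SZ 5. It was 5 without CKD 2, CKD 5 and SZ 3, 7 with only the groups compared and 9 with array weights.

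Enpep and Mme sit in the brush border, and of 13 tested brush border genes 11 were lower in CKD than in NC and none higher, where 26% of all tested genes were lower. The median was -1.16, and 7 were lower under TPM and 8 with plain totals. The metalloproteases Mep1b (-2.12, limma adjusted p = 0.0027) and Mep1a (-1.81), the endocytic receptor Lrp2 (-1.54) and the phosphate carrier Slc34a1 (-1.52) had the largest differences. In SZ against CKD 6 were higher and none lower, with a median of 0.64, where 4.16% of all tested genes were higher. They included Mep1a (1.17, adjusted p = 0.018), Lrp2 (1.09, adjusted p = 0.013) and Slc34a1 (0.99, adjusted p = 0.018). The count was 3 without CKD 5, SZ 1 or SZ 5 and with the replicate block, and 2 without SZ 4, where Slc34a1 had 0.93 (adjusted p = 0.053). Without CKD 2, CKD 5 and SZ 3, Mep1a had 0.91 (adjusted p = 0.052) and 4 were called. With only the SZ and CKD libraries in the fit limma called 0 of the 13, at 8 with an unadjusted p under 0.05.

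Of all tested genes 26% were lower in CKD than in NC and 4.16% higher in SZ than in CKD. Of 10 proximal tubule markers, some of which are in the brush border list too (Lrp2, Cubn, Slc34a1 and Slc3a1), 9 were lower in CKD than in NC and 6 higher in SZ than in CKD. Their summed level was 3437 to 4049 FPKM in SZ, 970 to 2966 FPKM in CKD and 4932 to 7370 FPKM in NC, with no overlap between any pair of groups. Enpep held the same order of group medians, as did Mme, Atp6ap2, Agt and Agtr1a, while Ace held the reverse order. The part of this marker level in the Enpep and Mme values was not tested. Lower levels in CKD were not limited to the proximal tubule. Also lower than in NC were 4 of 4 loop and distal tubule, 5 of 5 podocyte and 4 of 5 collecting duct markers. None of these was higher. Of 8 juxtaglomerular and mural markers 4 were higher in CKD and 1 was lower. Their summed level was 163 to 398 FPKM in CKD and 77.5 to 107 FPKM in NC. Macrophage markers summed to 452 to 1057 FPKM in SZ, 1143 to 2529 in CKD and 112 to 214 in NC. Of these, 10 of 10 were higher in CKD than in NC, as were 24.4% of all tested genes. Fibroblast markers summed to 178 to 382, 328 to 860 and 48.1 to 153 FPKM in the same order of groups. The share of mitochondrial reads averaged 14.0% in SZ, 10.3% in CKD and 19.4% in NC.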

How the data were processed

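RNA of 18 rat kidney libraries (6 per group) was sequenced. The authors deposited FPKM values per gene. Reads were aligned with HISAT2 2.0.5 and the build was mRatBN7.2, per the submitters' processing notes, while the counting program and its strand setting are not stated, so reads of overlapping genes on either strand cannot be assigned with certainty. All FPKM values came out as whole reads within a tolerance of 0.01, which gave depth. The authors' library sizes are median-ratio sizes, so the median gene is centred near 0 between groups.

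Genes at an FPKM of at least 1 in at least 6 libraries entered limma 3.58.1 as log2(FPKM + 1) (R 4.3.3) with a trend, in 1 fit of 3 group means, 2-sided, with Benjamini-Hochberg adjustment over all genes in each comparison. Fold changes on this scale understate those of low genes. Ratios, library measures and correlations used exact permutation tests (924 splits for 6 against 6). Figures used matplotlib 3.10.9.

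The members, lists and tests were chosen with earlier results of these data known. Named genes were all members, the called pathway genes, up to 4 called genes per other list and the 3 nearest genes per member. The fit was also run on simulated data with independent noise and few changed genes. That setting is unlike these data, so it is no check on the calls here. Alternatives were another pseudocount, filter, scaling, length correction, fit or test, and libraries left out. The labels do not say that replicate numbers pair samples, and the main fit did not pair them. Some genes of the pathway are not reported here.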

Additional observations from a re-analysis of the deposited data

Results flagged for a closer look

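Mme in the NC group had 1 library apart from the others: NC 2 stood at 35.4 FPKM, and its gap to the next library took 0.627 of the range of the group, just over the limit of Dixon's test at the 95% level. NC 2 was also the lowest NC library for Agt. In all, 21 groups of values were looked at, and chance marks about 1 in 20 such groups.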

How the results depend on the processing

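Enpep in CKD against NC kept its call and direction in all 15 alternative settings and 12 leave-one-out fits (-1.44 to -0.84), as did Anpep. Median ratio scaling, which is among the 15, gave the same median and counts as the deposited scaling, so it is no separate check. Alternatives for genes outside the members were added after the data had been seen. Members called in CKD against NC numbered 2 of 6 with no filter, under TPM scaling, with plain totals, without the 20 most abundant genes and without CKD 2, CKD 5 and SZ 3, and 2 to 4 with a library left out (2 without NC 5 or CKD 5). In SZ against CKD they numbered 0 with no filter, under those 3 scalings, with only the groups compared and with the replicate block, and 0 to 1 with a library left out. In SZ against NC they numbered 0 with no filter, under those scalings and with the replicate block, 2 without CKD 2, CKD 5 and SZ 3, 2 with only the groups compared, 3 with array weights, and 0 to 1 with a library left out. The cause was not tested.

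Genes called in CKD against NC numbered 4447 at a mean FPKM of at least 5. In SZ against CKD there were 554 with only the groups compared, 2830 with array weights and 533 to 3058 with a library left out (533 without SZ 4, 3058 without SZ 3). In SZ against NC there were 1627 at a mean FPKM of at least 5 and 5492 with array weights. The counts at a mean FPKM of at least 5 come from a different set of tested genes. They do not by themselves show lost calls. Called ratios in CKD against NC numbered 0 without CKD 2, CKD 5 and SZ 3 and 2 to 4 with a library left out. In SZ against NC they numbered 0 to 1 (1 without SZ 6, the Ace to Mme ratio). The exact test of these ratios has fewer splits when libraries are left out.

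The direction turned for Atp6ap2 in CKD against NC under TPM (0.013). In SZ against CKD it turned for Agt (-0.034 under TPM, -0.29 without CKD 2, CKD 5 and SZ 3, and -0.19 to 0.62 with a library left out), for Mme (-0.16 without those 3 libraries) and for Atp6ap2 (-0.13 under TPM, -0.11 with totals, -0.071 to 0.15 with a library left out). It also turned for Ace (-0.32 to 0.0081) and the Agt to Ace ratio (-0.10 to 0.68) with a library left out. Agtr1a in SZ against NC was 0.032 and Atp6v0c in CKD against NC 0.061 under TPM. None of these turned values was called.

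The labels do not say that replicate numbers pair the samples. Correlations of same-numbered deviations ran from -0.36 to 0.23, with no differently numbered libraries as a reference, so pairing was not tested. The replicate block left 6636 genes called in CKD against NC, 1195 in SZ against CKD and 2584 in SZ against NC, and lost Enpep in SZ against CKD (adjusted p = 0.055) and Atp6ap2 in SZ against NC (adjusted p = 0.072). Depth limits Mas1, Cma1 and Cpa3, which rest on at most 32 reads per library.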
